A study of Homo sapiens with 4 samples.

Results

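The mitochondrial ribosomal protein genes were examined in THP1 cells after siRNA knockdown of the fusion oncogene MLL-AF9. Members were all genes whose name on the array is MRPL or MRPS followed by a number and at most 1 letter, which named 76 of 17938 genes with a symbol, 47 of the large and 29 of the small subunit. Every one of the 76 had a probe with a weight above 0 on all 4 arrays, so that no member was lost, and the brightest of its probes stands for the gene. All 76 probes were well above background on every array.

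THP1 is an established human line of acute monocytic leukemia that carries the fusion of MLL with AF9 (MLLT3). The 4 single-colour Agilent arrays, all on 1 slide, held THP1 RNA of 4 treatments. In the knockdown treatments, siRNA-A and siRNA-B were directed at the MLL-AF9 breakpoint of these cells, and in the control treatments non-targeting RNAs were given, named control siRNA-1 and control siRNA-2. Cells were transfected on days 0, 3 and 6 and harvested on day 8. They were kept in 10% serum to day 6 and in 0.5% serum from day 6. Each array held a pool of 5 experiments. The comparison was therefore made between 2 knockdown and 2 control arrays of 1 cell line. siRNA-B and siRNA-A lay at the first and second position of the slide and the controls at the other two, so that treatment and slide position cannot be told apart.

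Mitochondrial ribosomes translate the few messenger RNAs of the mitochondrial genome, which encode membrane subunits of the respiratory chain and ATP synthase. Their RNA is made in the mitochondrion, but all their proteins are encoded in the nucleus, translated in the cytosol and imported. The small subunit binds the messenger RNA and decodes it, and the large subunit joins the amino acids and is tethered to the inner membrane. Compared with their bacterial relatives these ribosomes have lost RNA and gained proteins, so that a part of the genes has a bacterial counterpart and a part has none.

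Values are log2 of the deposited intensity, and differences are log2 fold changes of knockdown over control. A gene counts as called where limma gave it an unadjusted p below 0.005. This is the first of the criteria in the study's methods, and the second, a test over identical spots, was not applied. Beside the unadjusted p stands the p adjusted over all 26219 probes by Benjamini and Hochberg. With 2 arrays against 2, an exact permutation test (two-sided) cannot go below p = 0.333, so that single genes rest on limma, which shares the variance between probes. Levels of different genes are not compared, because probes differ in brightness. As bulk RNA was measured, fewer cells and less RNA per cell cannot be told apart.

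As checks of the arrays, 6 of 8 monocytic and myeloid markers were analysed and all 6 were well above background on every array. So were 3 of 3 T cell, 2 of 3 B cell and 2 of 3 erythroid markers, and 0 of 2 measured epithelial markers, so that this mark of the scanner software does not separate cell types here. Of the genes joined in the fusion, both probes of MLLT3 were lower after knockdown (log2 fold change -0.76 and -0.63, unadjusted p = 8.05e-05 and 0.000687, adjusted p = 0.0640 and 0.182 in limma). The 4 probes of MLL changed by -0.41, -0.08, -0.03 and 0.05, none of them called (unadjusted p of the first = 0.00590 in limma). Whether a probe reads the fusion or the unrearranged transcript was not tested.

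None of the 76 members reached the call threshold in limma, which 1.33% of all named genes did. At an unadjusted p under 0.05, 3 members were lower (4.74% of named genes) and 0 were higher (3.26%). These 3 were MRPS7 of the small and MRPL37 and MRPL40 of the large subunit, and none had an adjusted p under 0.05. The change ranged from -0.35 for MRPS7 to 0.34 for MRPS2 over the members, and the latter became -0.05 without control siRNA-2, in which MRPS2 was low. The median standard error was 0.12, at which a log2 change of 0.44 would have reached the threshold, and the 95% intervals of the members reached from -0.69 to 0.83 (MRPS2) at the widest.

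Most members were nevertheless slightly lower after knockdown. The log2 fold change was below 0 in 63 of 76 members (82.9%) and in 56.2% of all named genes, and its median was -0.09 against -0.02. It was negative in 36 of 47 large subunit genes (median -0.09) and in 27 of 29 small subunit genes (median -0.09). With siRNA-A left out 46 of 76 members were below 0 (median -0.02), and with siRNA-B left out 63 (median -0.17). The medians over all named genes were then 0.01 and -0.05. Both siRNAs gave less signal than either control in 29 members, 18 large and 11 small, which held for 21.2% of named genes. Both lay above both controls in 3 members, MRPL34, MRPL4 and MRPL38, against 15% of named genes. The spread between like arrays was as large: the 2 control arrays differed by a median of 0.11 over the members, with control siRNA-2 the higher in 68 of 76, and 43 members differed more between the controls than between the groups.

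Other genes of like intensity were shifted down as well, by less. The 2064 named genes within the interquartile range of the members' intensities, from 11.84 to 13.54, had a median of -0.04 and were lower in 63.4%. Cyclic loess normalization, which removes differences between arrays that depend on intensity, left a median of -0.05 over the members and 0.01 over those genes of like intensity. After it, 54 of 76 members (71.1%) and 47.2% of the genes of like intensity were below 0, and the controls differed by a median of 0.02 over the members. Both knockdown arrays were then below both controls in 25 members (20.1% of named genes) and above both in 9 (21.5%). A single member, MRPS7, had an unadjusted p under 0.05 after cyclic loess, against 8.74% of named genes.

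**Figure D1:**
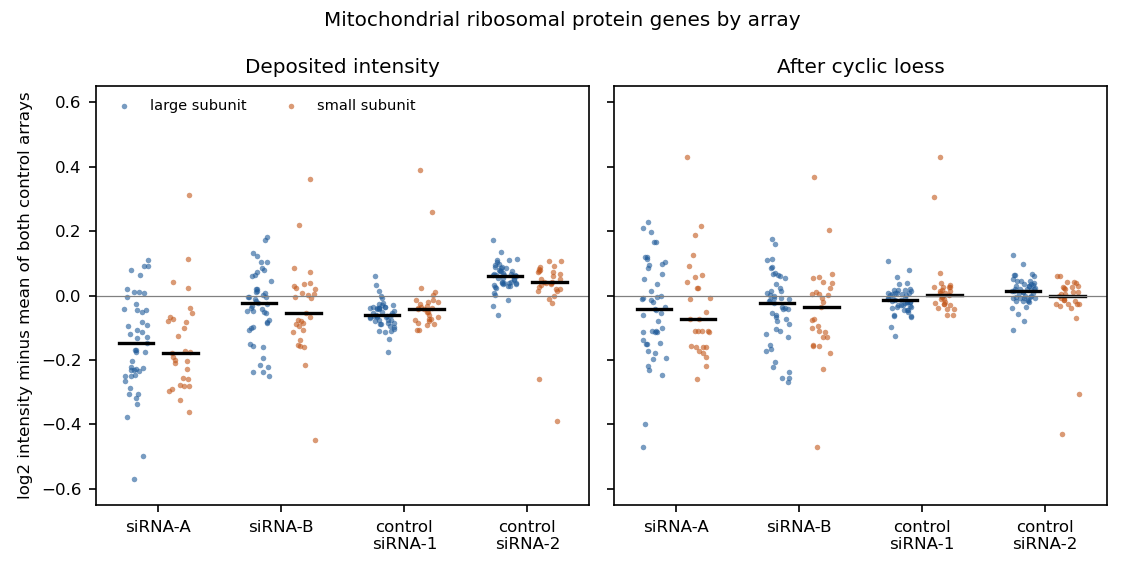
Log2 intensity of each of the 76 genes minus the mean of both control arrays (vertical axis) in each of the 4 arrays (horizontal axis), for the deposited intensities (left) and after cyclic loess normalization (right). Blue points are the 47 large and orange points the 29 small subunit genes, and black bars are medians. The siRNA-A points are shifted down in the deposited values, with medians of -0.15 and -0.18, and by less after normalization, with medians of -0.04 and -0.07.

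The 2 siRNAs were then taken separately, each as 1 array against the mean of the controls, which both share. With siRNA-A the median over the members was -0.17, and it was -0.15 for the large and -0.18 for the small subunit. With siRNA-B it was -0.02, with -0.02 and -0.05 for the subunits. The siRNA-A array lay below both controls in 57 members (47% of named genes) and above both in 6 (24.5%), and the siRNA-B array below both in 31 (32%) and above both in 13 (38.3%).

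The gap between the siRNAs was also seen in genes of like intensity. siRNA-A was lower than siRNA-B in 61 of 76 members (80.3%) and in 75.3% of the genes of like intensity. After cyclic loess it was lower in 33 of 76 members, and the medians over the members were -0.05 for siRNA-A and -0.03 for siRNA-B. siRNA-A then lay below both controls in 42 members, 24 large and 18 small (36.2% of named genes), and siRNA-B in 39, 24 large and 15 small (37.9%).

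**Figure D2:**
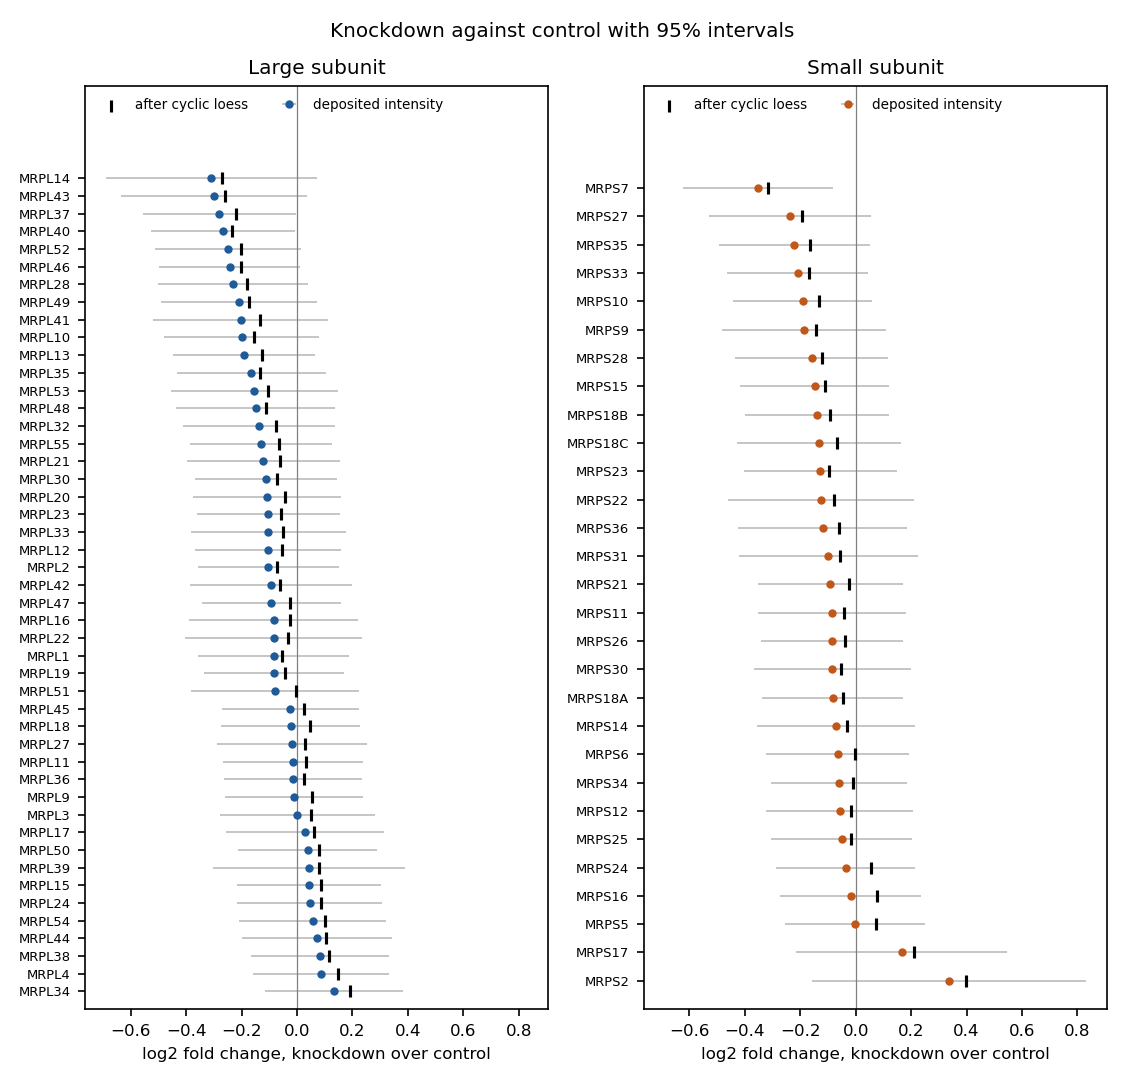
Log2 fold change of knockdown over control (horizontal axis) for every large subunit gene (left) and small subunit gene (right), ordered by value, with bars for 95% intervals from limma and black ticks for the value after cyclic loess. The intervals of MRPS7, MRPL37 and MRPL40 do not reach 0, and those of all other members include it.

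In the small subunit, MRPS7, which folds into the head of the subunit, measured 11.62 and 11.42 with siRNA-A and siRNA-B and 11.84 and 11.91 with control siRNA-1 and control siRNA-2. Both knockdown arrays lay below both controls, and siRNA-B was the lower. The log2 fold change was -0.35 ± 0.12 (standard error, n = 2 against 2; unadjusted p = 0.0164, adjusted p = 0.504 in limma), and -0.31 after cyclic loess. Its probe lies at chr17:73258756-73258930 (hg19), which spans more of the genome than the probe is long, as a probe across a splice junction does.

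Of the small subunit genes without a bacterial counterpart, MRPS27, a pentatricopeptide repeat protein, measured 12.04 and 12.29 with siRNA-A and siRNA-B and 12.33 and 12.48 in the controls. MRPS33 measured 11.92 and 12.02 against 12.14 and 12.22. MRPS35 measured 13.28 and 13.41 against 13.48 and 13.65. In these 3 genes both knockdown arrays lay below both controls, siRNA-A lay lowest, and the changes were -0.24, -0.21 and -0.22.

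MRPS10, with a bacterial counterpart in the head of the subunit, measured 13.29 with siRNA-A, 13.37 with siRNA-B, and 13.49 and 13.55 in the controls. MRPS28 measured 11.73, 11.83, 11.83 and 12.04 in the same order. For MRPS28 siRNA-B and control siRNA-1 were level, and the changes of both genes, -0.19 and -0.16, had 95% intervals that included 0. MRPS12, at the decoding centre, measured 12.12, 11.96, 12.06 and 12.14, so that siRNA-A lay within and siRNA-B below the range of the controls, and it changed by -0.06.

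In the large subunit, MRPL40, a protein of the central protuberance, measured 10.79 and 10.89 with siRNA-A and siRNA-B and 11.16 and 11.05 with the controls. The groups did not overlap, and the change was -0.27 ± 0.11 (standard error, n = 2 against 2; unadjusted p = 0.0452, adjusted p = 0.611 in limma). After cyclic loess siRNA-A and siRNA-B gave -0.23 and -0.24. MRPL46, of the same protuberance, measured 11.80 and 11.81 against 11.99 and 12.11, with both knockdown arrays lower by about the same amount and a change of -0.24.

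MRPL37, which has no bacterial counterpart, measured 13.39 and 13.50 with siRNA-A and siRNA-B and 13.62 and 13.83 with control siRNA-1 and control siRNA-2. Its change was -0.28 ± 0.12 (standard error, n = 2 against 2; unadjusted p = 0.0482, adjusted p = 0.616 in limma). A second MRPL37 probe, at chr1:54678253-54678312 (hg19), measured 12.87, 12.80, 12.76 and 12.96 in the same order. There the knockdown arrays lay within the range of the controls and the change was -0.03, so that the lower values were seen with the probe at chr1:54683876-54683935 and not with the other.

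MRPL14 and MRPL43 were lowest with siRNA-A. MRPL14, with a bacterial counterpart at the face toward the small subunit, measured 11.46 with siRNA-A, 11.98 with siRNA-B, and 11.99 and 12.07 in the controls. MRPL43 measured 11.46 with siRNA-A, 11.86 with siRNA-B, and 11.89 and 12.02 in the controls. In both genes siRNA-B also lay below both controls, by far less than siRNA-A, and the differences from the control mean were -0.57 and -0.05 for MRPL14 and -0.50 and -0.10 for MRPL43. After cyclic loess they were -0.47 and -0.07, and -0.40 and -0.12. The second MRPL43 probe changed by 0.01, but its log2 intensity was between 6.36 and 6.48. MRPL52 measured 12.54 and 12.65 against 12.78 and 12.91, with both siRNAs below both controls and a change of -0.25. A second MRPL52 probe measured 9.27 and 9.19 against 9.26 and 9.42. There siRNA-A lay within the range of the controls and the change was -0.10.

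MRPS22 and MRPS31, neither with a bacterial counterpart, also differed between the siRNAs. MRPS22 was 0.32 below the control mean with siRNA-A, at 12.18, and 0.07 above it with siRNA-B, at 12.58. MRPS31 measured 12.03 with siRNA-A, 12.39 with siRNA-B, and 12.26 and 12.36 in the controls. In both, siRNA-A lay below and siRNA-B just above both controls. Each siRNA was 1 array, so that these differences, for which the 4 genes were named, have no replicate and are given as a description. The 4 genes were picked as the largest such differences, so that a test of them on the same arrays restates that choice. In a limma fit that takes the spread from the 2 control arrays and the variance shared between probes, siRNA-A and siRNA-B differed at an unadjusted p under 0.05 in 4 of 76 members (9.33% of named genes) and under 0.005 in 0 (0.714%), and 0 had an adjusted p under 0.05. After cyclic loess 5 members were under 0.05 (11.4% of named genes), among them MRPS7 and MRPS12, in which siRNA-A was the higher by 0.31 and 0.28, while MRPS31 was not. Over the members, siRNA-A and siRNA-B differed by a median of 0.12 in size and the controls by 0.12, and by 0.08 and 0.05 after cyclic loess.

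**Figure D3:**
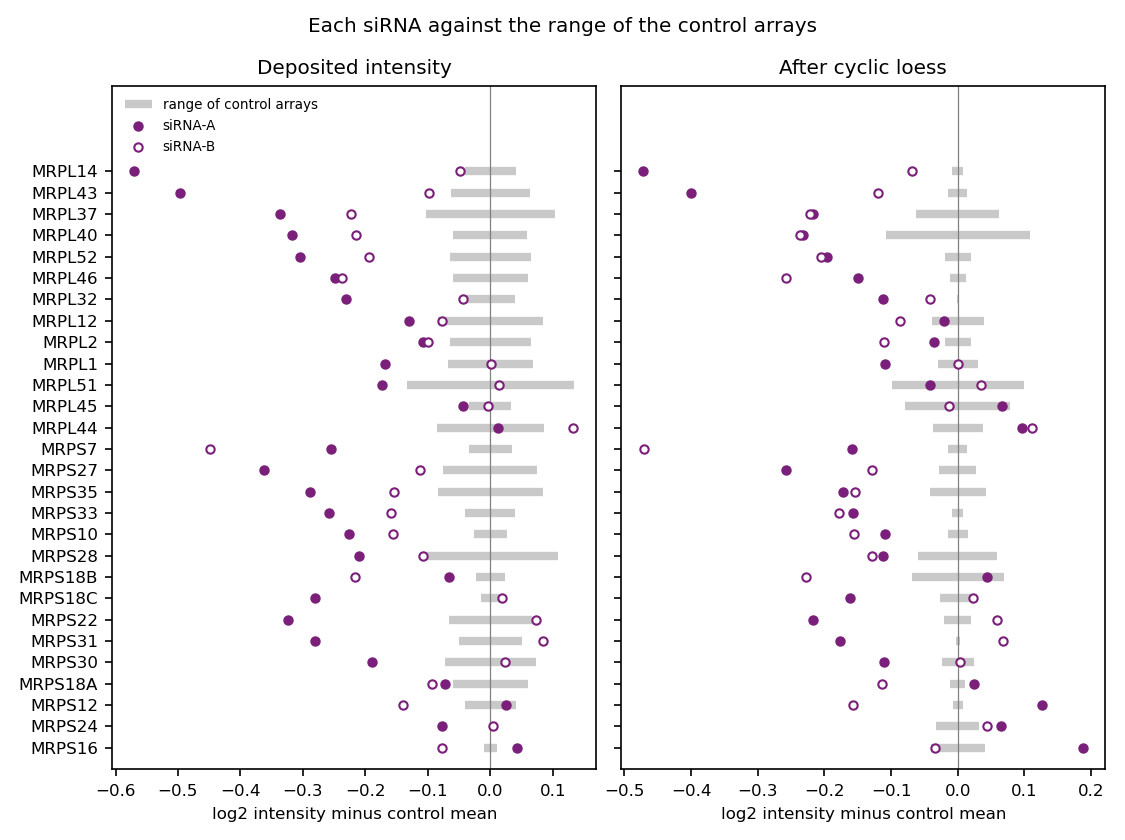
Log2 intensity minus the control mean (horizontal axis) with siRNA-A (filled circles) and siRNA-B (open circles) for the 28 named members, against the range of the 2 control arrays (grey bars), before (left) and after (right) cyclic loess. MRPL14 and MRPL43 stand out with siRNA-A at -0.57 and -0.50, and MRPS7 with siRNA-B at -0.45.

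Proteins with special places on the ribosome showed small differences. MRPL12, of the stalk that recruits translation factors, measured 12.75 and 12.80 with the siRNAs and 12.79 and 12.96 with the controls. MRPL45, which anchors the exit of the tunnel to the inner membrane, measured 12.83 and 12.87 against 12.90 and 12.84. MRPL44, which has a ribonuclease III fold, measured 10.84 and 10.96 against 10.74 and 10.91. In all 3 genes the knockdown and control ranges overlapped, and the changes of the 3 genes were -0.10, -0.02 and 0.07.

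MRPS30 and MRPS18A carry a small subunit name, but their proteins sit in the large subunit. MRPS30 measured 10.24 and 10.46 against 10.36 and 10.51, and MRPS18A measured 11.73 and 11.71 against 11.74 and 11.86. The related MRPS18B and MRPS18C belong to the small subunit. MRPS18B measured 12.71 and 12.56 against 12.80 and 12.75, and MRPS18C measured 13.48 and 13.78 against 13.74 and 13.77. The changes of MRPS30, MRPS18A, MRPS18B and MRPS18C were -0.08, -0.08, -0.14 and -0.13, and among the MRPS18 genes MRPS18C was low with siRNA-A and MRPS18B lower with siRNA-B. MRPS36, named as a ribosomal protein on the array and now KGD4, belongs to the oxoglutarate dehydrogenase complex and changed by -0.12.

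The probes with the brightest controls, of MRPS16, MRPS24 and MRPL51, and those with the dimmest, of MRPL1, MRPL2 and MRPS30, covered the range of intensities. MRPS16 measured 15.92 and 15.80 against 15.89 and 15.87, MRPS24 measured 15.59 and 15.67 against 15.67 and 15.66, and MRPL51 measured 14.58 and 14.77 against 14.62 and 14.89. MRPL1 measured 8.00 and 8.17 against 8.10 and 8.24, and MRPL2 measured 9.32 and 9.33 against 9.36 and 9.49. These changes lay between -0.10 and -0.02, and both knockdown arrays lay below both controls for MRPL2 of these 6 genes.

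The 48 members with a bacterial counterpart had a median change of -0.09 and the 28 without one of -0.12, and after cyclic loess -0.04 and -0.07. The change was below 0 in 40 of 48 (83.3%) with a counterpart and 23 of 28 (82.1%) without one, against 56.2% of all named genes. With the subunit taken from the gene name, so that MRPS30, MRPS18A and MRPS36 count as small, these were 24 of 30 and 12 of 17 in the large and 16 of 18 and 11 of 11 in the small subunit. With siRNA-A the medians of members with and without a counterpart were -0.13 and -0.25, and with siRNA-B -0.02 and -0.03.

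Repeated and overlapping probes show the error within an array. For 8 members the probe was printed on 10 spots, and the standard deviation of identical spots ranged from 0.09 to 0.27 on 1 array, while 68 members rested on 1 spot. For 14 members there was more than 1 probe. A pair of MRPL12 probes is shown because both read nearly the same stretch of the transcript, 12 bases apart with 48 bases in common. The first 30 bases of each are printed, with the bases that are part of both probes in capitals.
first MRPL12 probe: cctgaccgaggcGAAGCCCGTGGACAAAGT
second MRPL12 probe: GAAGCCCGTGGACAAAGTGAAGCTGATCAA

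The first measured 12.75, 12.80, 12.79 and 12.96 with siRNA-A, siRNA-B, control siRNA-1 and control siRNA-2, and the second 12.77, 12.63, 12.85 and 12.95. The changes were -0.10 and -0.20, and the knockdown arrays lay below both controls with the second probe but not with the first. MRPL32 had probes that differed in sign, -0.14 and 0.07, with 25 bases in common. The probes of MRPL43, MRPL37 and MRPL32 differed by 0.31, 0.25 and 0.21, the most among the 14 members whose probes were well above background on every array of a group.

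Beyond the genes that match the name rule, 7 genes encode ribosomal proteins under other names, and all were measured. ICT1, a peptidyl-tRNA hydrolase built into the large subunit, measured 13.40 and 13.25 with siRNA-A and siRNA-B against 13.49 and 13.61, and CHCHD1 measured 12.50 and 12.59 against 12.68 and 12.81. For both genes the knockdown arrays lay below the controls, and the changes were -0.23 and -0.20. Of the rest GADD45GIP1, PTCD3, DAP3 and MRP63 changed by -0.19, -0.17, -0.11 and -0.05, and AURKAIP1 by 0.07. None of the 7 was called, and their median was -0.17, or -0.15 after cyclic loess.

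Other steps of mitochondrial gene expression were compared by their counts, to be read beside the 1.33% of all named genes that were called. Of 12 translation factors 0 were called (median -0.07), with the release factors MTRF1L and MTRF1 at -0.24 and -0.20. Of 21 measured assembly factors 0 were called (median -0.05), with NGRN at -0.26 and GTPBP5 at 0.15. Of 13 measured genes of mitochondrial transcription and RNA processing 0 were called (median -0.10), with the helicase SUPV3L1 at -0.26 and the RNA polymerase POLRMT at 0.21. At an unadjusted p under 0.05 in limma SUPV3L1 was the one gene of these 3 lists that passed, against 7.99% of all named genes.

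Of 20 mitochondrial aminoacyl-tRNA synthetases, which charge transfer RNAs with amino acids, 1 was called (1.33% of all named genes), and the median was -0.07. This was SARS2, the seryl-tRNA synthetase, which measured 9.72 and 9.36 with siRNA-A and siRNA-B and 10.25 and 10.31 with the controls. It fell by 0.74 ± 0.14 on the log2 scale (standard error, n = 2 against 2; unadjusted p = 0.000578, adjusted p = 0.176 in limma), and the change was -0.71 after cyclic loess.

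The products of the mitochondrial ribosome join nuclear-encoded subunits of the respiratory chain and ATP synthase. Of 78 such nuclear genes 2 were called, against 1.33% of all named genes. Both were lower, NDUFA4 at -0.72 and the ATP synthase subunit gene ATP5G2 at -0.67 (unadjusted p = 0.000114 and 0.000194, adjusted p = 0.0755 and 0.106 in limma). The median of the 78 genes was -0.10, or -0.03 after cyclic loess. Of 81 genes of the cytoplasmic ribosome 2 were called, against the same 1.33%. Both were lower, RPS26 at -0.85 and RPL34 at -0.46 (unadjusted p = 0.000448 and 0.00235, adjusted p = 0.152 and 0.277 in limma), and such genes have near-identical pseudogenes that a probe can share. After cyclic loess these were -0.74 and -0.35 with unadjusted p of 0.00727 and 0.00979, so that neither was called, while NDUFA4 and ATP5G2 kept p of 0.000544 and 0.00108. The median of the cytoplasmic genes was -0.10 and became 0.02 after cyclic loess, and that of the mitochondrial ribosomal genes went from -0.09 to -0.05. The cytoplasmic genes were far brighter, with a median log2 intensity of 17.39 against 12.49, near the top of all named genes (19.08 at most). Whether the normalization followed these genes themselves there was not tested, so that the 2 shifts are not set against each other. Of the cytoplasmic genes 69 of 81 were below 0 before and 39 of 81 after normalization, and of the mitochondrial genes 63 and 54 of 76.

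**Figure D4:**
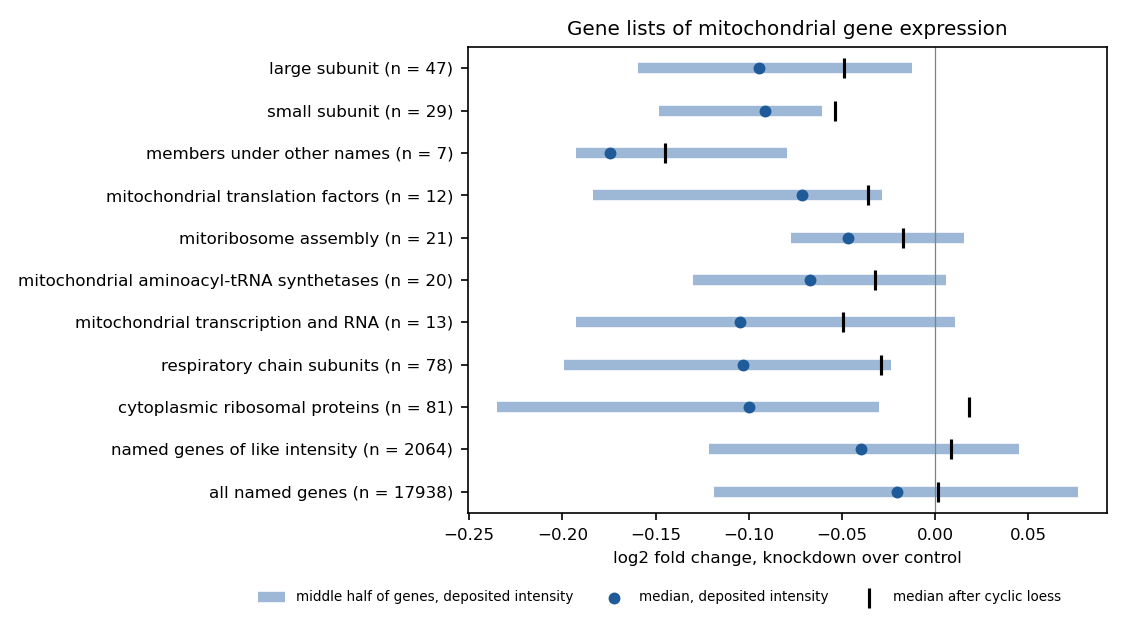
Median log2 fold change of knockdown over control (horizontal axis) for each gene list, with blue dots for the deposited intensities, blue bars for the interquartile range of the genes, and black ticks for the median after cyclic loess. The black tick of the cytoplasmic ribosomal proteins lies above 0, at 0.02, and those of both mitochondrial subunits at -0.05. The cytoplasmic genes are far brighter (median log2 intensity 17.39 against 12.49), so that these ticks are not set against each other.

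Some of these genes start close to a gene that is read in the opposite direction. How common this is over all genes was not counted. RefSeq promoter windows of GRCh38.p14 (250 bases before to 50 after a start site) were listed for 67 of the 76 members, and 25 of them had another gene starting on the opposite strand within 1000 bases upstream. Of the partners 17 outside the members were measured, 10 of them below 0 with a median of -0.02, while the members they neighbour had a median of -0.13. Of all named genes 56.2% were below 0, with a median of -0.02. One pair, MRPL46 and MRPS11, joins a large and a small subunit gene with 320 bases between the start sites. MRPS11 measured 12.30, 12.49, 12.46 and 12.50 with siRNA-A, siRNA-B, control siRNA-1 and control siRNA-2, and the changes of MRPL46 and MRPS11 were -0.24 and -0.09.

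The partner of MRPS12 is SARS2, with 181 bases between the start sites. While SARS2 was called, MRPS12 changed by -0.06, with a 95% interval from -0.32 to 0.21, against an interval from -1.06 to -0.42 for SARS2. The log2 ratio of SARS2 to MRPS12 changed by -0.68 between knockdown and control arrays, with -2.40 and -2.60 in the former and -1.81 and -1.83 in the latter. The two-sided exact permutation p of this difference was 0.333, the smallest that 2 arrays against 2 can give. Of the other partners C9orf116, now PIERCE1, beside MRPS2 was lower at an unadjusted p of 0.0116 in limma (-0.37, adjusted p = 0.470). No further partner had an unadjusted p under 0.05 in limma, which 7.99% of all named genes had.

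**Figure D5:**
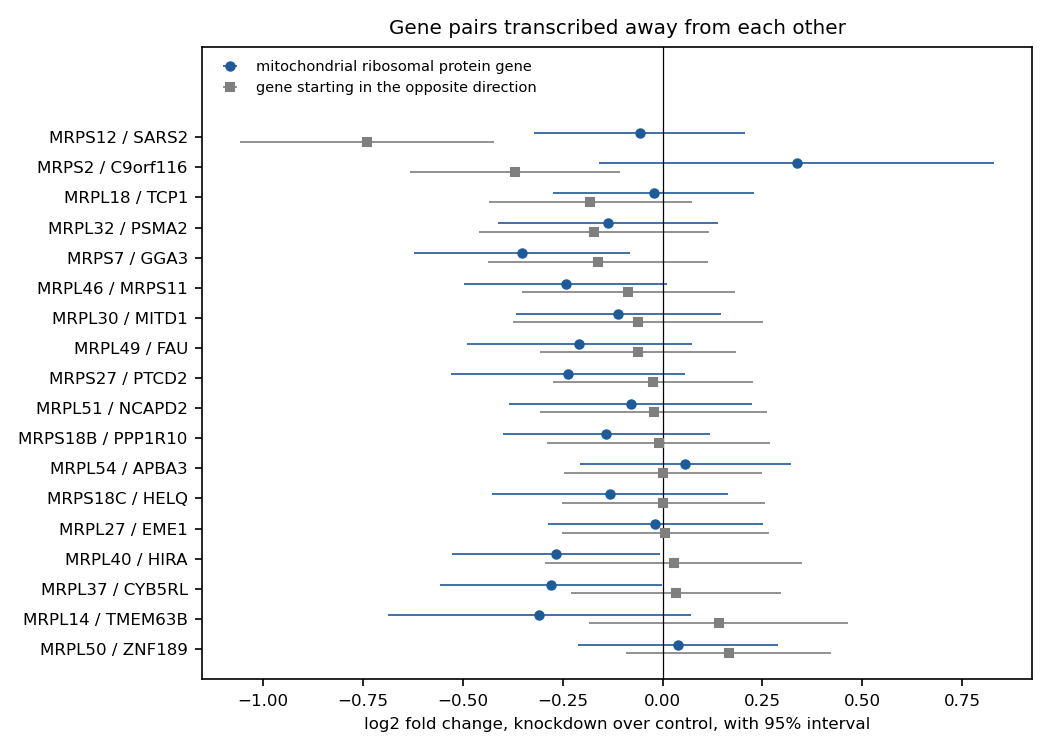
Log2 fold change of knockdown over control with 95% intervals from limma (horizontal axis) for 18 pairs of genes that start within 1000 bases of each other on opposite strands, with blue circles for the mitochondrial ribosomal protein gene and grey squares for its partner. SARS2 lies at -0.74 and MRPS12, its partner, at -0.06, and in the pair of 2 members MRPS11 is drawn as the partner.

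Promoter windows are shown for MRPS12, which holds the shared region with SARS2, for MRPL46, which faces MRPS11, and for MRPS7, MRPL40 and MRPL37, the 3 members with an unadjusted p under 0.05. They are from RefSeq (GRCh38.p14), read 5′ to 3′ on the strand of the gene, and lie at chr19:38930694-38930993 on the + strand, chr15:88467339-88467638 on the - strand, chr17:75261629-75261928 on the + strand, chr22:19432295-19432594 on the + strand and chr1:54199917-54200216 on the + strand. MRPS12 has 2 windows, of which the first listed is printed. Capitals mark matches, on either strand, to CCGGAAG (ETS factors), TGCGCATGC (NRF1), AAGATGGCG (YY1) and GGGCGG (GC box), letters fixed for the search.
MRPS12: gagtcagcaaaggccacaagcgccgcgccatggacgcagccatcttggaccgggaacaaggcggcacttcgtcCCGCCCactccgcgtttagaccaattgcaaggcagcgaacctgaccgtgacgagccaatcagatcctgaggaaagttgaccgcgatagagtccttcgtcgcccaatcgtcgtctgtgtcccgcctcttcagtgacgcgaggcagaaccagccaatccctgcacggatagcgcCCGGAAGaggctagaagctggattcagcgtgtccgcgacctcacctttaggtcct
MRPL46: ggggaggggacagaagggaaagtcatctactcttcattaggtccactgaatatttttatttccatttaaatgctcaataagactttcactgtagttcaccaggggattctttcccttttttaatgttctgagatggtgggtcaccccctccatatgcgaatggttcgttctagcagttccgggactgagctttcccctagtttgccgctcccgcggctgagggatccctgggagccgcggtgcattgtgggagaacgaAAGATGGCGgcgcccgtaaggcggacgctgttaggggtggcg
MRPS7: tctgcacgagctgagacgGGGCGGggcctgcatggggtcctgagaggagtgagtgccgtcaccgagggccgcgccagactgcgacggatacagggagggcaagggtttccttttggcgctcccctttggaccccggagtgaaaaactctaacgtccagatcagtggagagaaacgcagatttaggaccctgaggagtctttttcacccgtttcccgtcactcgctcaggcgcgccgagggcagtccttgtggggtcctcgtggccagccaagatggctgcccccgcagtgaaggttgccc
MRPL40: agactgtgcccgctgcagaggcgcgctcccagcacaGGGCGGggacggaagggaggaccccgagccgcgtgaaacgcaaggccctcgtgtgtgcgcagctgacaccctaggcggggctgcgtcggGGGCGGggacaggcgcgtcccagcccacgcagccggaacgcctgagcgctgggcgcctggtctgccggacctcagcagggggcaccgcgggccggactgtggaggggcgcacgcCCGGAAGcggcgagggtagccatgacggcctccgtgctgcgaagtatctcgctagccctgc
MRPL37: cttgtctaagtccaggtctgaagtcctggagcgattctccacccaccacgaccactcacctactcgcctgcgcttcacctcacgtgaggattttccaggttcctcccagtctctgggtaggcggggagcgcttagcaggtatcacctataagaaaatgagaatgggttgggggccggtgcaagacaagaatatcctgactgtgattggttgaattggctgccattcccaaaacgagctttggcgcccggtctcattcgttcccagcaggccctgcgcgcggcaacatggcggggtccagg

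In these windows CCGGAAG lay 5 bases before the start site of MRPS12 and 11 before that of MRPL40, AAGATGGCG 8 bases after that of MRPL46, and GGGCGG, counted on both strands, once before MRPS12, once before MRPS7 and at 2 positions before MRPL40. The MRPL37 window held 0 matches. Over all windows of protein-coding genes, 12.8% of 22199 held CCGGAAG, against 32 of the 83 windows of members (38.6%). AAGATGGCG was in 2.41% of all windows and in 13 of 83 windows of members (15.7%), TGCGCATGC in 1.87% and in 5 (6.02%), and GGGCGG in 56.3% and in 50 (60.2%). By gene, CCGGAAG was found in 17 of 40 large and 12 of 27 small subunit genes, and AAGATGGCG in 8 and 5. A match describes the letters in a window and not the binding of a factor.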

How the data were processed

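Gene expression was measured on 4 single-colour Agilent 4x44K v2 arrays, 1 for each siRNA. The authors extracted the spots with Agilent Feature Extraction 10.5.1.1 and deposited, for each spot, an intensity and a quality score from 0 to 1 as a weight. The intensity is the median pixel signal, with no background correction or normalization across arrays. The scanner tables deposited by the authors also hold the background-subtracted intensity and flags. Probe positions are those of hg19. Groups were taken from the labels. Their titles number the knockdown siRNAs 3 and 4, given here as siRNA-A and siRNA-B.

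Of 44495 spots, 1377 control spots and spots with a weight of 0 were left out, which left 33323 spots on 26219 probes. Identical spots were averaged with their weights, and their log2 values went into a linear model without covariates (limma 3.58.1, R 4.3.3). Counting and figures used Python 3.11.15 with pandas 2.3.3, scipy 1.17.1 and matplotlib 3.10.9. A call was an unadjusted two-sided p under 0.005, and p were adjusted over the 26219 probes by Benjamini and Hochberg. Each array held a pool, and the 2 arrays of a group held different siRNAs. The spread behind p therefore mixes differences between siRNAs and between arrays, and no treatment had a repeated pool. The number of arrays limits the precision. On simulated arrays of the same design, 93 of 100 probes with a log2 change of 1 and 43 of 100 with a change of 0.5 were called, as were 0.457% of unchanged probes.

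The members, lists and tests were chosen with earlier results of these data known. Named members were those called, in each subunit the 6 largest changes with both knockdown arrays beyond both controls, the 4 largest differences between siRNAs, the 3 brightest and 3 dimmest probes, 8 landmark genes and the 3 with the most discordant probes, and in the other lists every called gene or otherwise the 2 with the smallest p. Other genes, such as MRPL34, MRPS11, MRPS36, C9orf116 and the ribosomal proteins under other names, were named in counts or pairs after their values were seen. Of 76 members 75 matched a RefSeq gene by accession, and 74 kept their symbol. Promoter windows were not at hand for MRPL10, MRPL13, MRPL15, MRPL2, MRPL21, MRPL23, MRPL35, MRPS28 and MRPS36. Alternatives were cyclic loess and quantile normalization, other background corrections and scaling, no weights, a filter on dim probes, a variance trend, the mean of all probes of a gene, another assignment to subunits, and leaving out each array. The test of siRNA-A against siRNA-B was added after seeing the data.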

Additional observations from a re-analysis of the deposited data

How the results depend on the processing

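None of the members was called under any of the alternatives run, and 0 had an adjusted p under 0.05 in limma. The number with an unadjusted p under 0.05 was 3 of 76 as reported (7.99% of named genes), 1 after cyclic loess (8.74%), 2 after quantile normalization (8.85%), 5 with normexp and quantile (9.50%) and 0 where background was subtracted, either scaled (7.17%) or unscaled (6.82%). With siRNA-B left out it was 6 (10.1%), with siRNA-A left out 1 (9.26%), with control siRNA-1 left out 3 (4.09%) and with control siRNA-2 left out 0 (3.07%). The cause was not tested.

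The median over members with siRNA-A, -0.17, moved to -0.052 after cyclic loess, to -0.052 after quantile normalization and to -0.045 with normexp and quantile. It was -0.099 with the scaled background-subtracted signal, -0.22 without control siRNA-1 and -0.10 without control siRNA-2. That with siRNA-B, -0.02, ranged from -0.08 without control siRNA-1 to 0.01 without control siRNA-2. When 1 array was left out, the large subunit median ranged from -0.15 to -0.02 and the small subunit median from -0.18 to -0.05. Without siRNA-A the median over all members was -0.02, without siRNA-B -0.17, without control siRNA-1 -0.15 and without control siRNA-2 -0.05. Subunit medians moved by less than the spread between arrays (standard deviation 0.09 and 0.10) in every alternative. That spread is about as large as the medians themselves, -0.09 in both subunits, so that this does not show them to be stable. The large subunit median was -0.041 after quantile normalization and -0.036 with normexp and quantile.

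Some named members with small negative changes turned positive. MRPL45 moved to 0.027 after cyclic loess, 0.026 after quantile normalization, 0.035 with normexp, and 0.039 and 0.0059 with the background-subtracted signal scaled and unscaled. After cyclic loess, quantile and normexp MRPS16 moved to 0.077, 0.15 and 0.027, and MRPS24 to 0.054, 0.039 and 0.0051. MRPL51 moved to 0.0015 after quantile normalization and MRPL12 to 0.0034 with the scaled signal. When 1 array was left out, both signs were met for MRPL1 from -0.17 to 0.0016, MRPL44 from -0.014 to 0.16, MRPL45 from -0.057 to 0.0100, MRPL51 from -0.21 to 0.054, MRPS12 from -0.14 to 0.025, MRPS16 from -0.077 to 0.043, MRPS18C from -0.28 to 0.019, MRPS22 from -0.32 to 0.073, MRPS24 from -0.078 to 0.0047, MRPS30 from -0.19 to 0.023 and MRPS31 from -0.28 to 0.084.

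No paired analysis was possible. Each array pooled 5 experiments with 1 siRNA, and no label pairs a knockdown array with a control array. The siRNA medians were not recomputed without a knockdown array, and medians do not change with the variance trend. The array left alone in a group was taken to have the spread of the other group. Signal over background did not limit the members.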

Other observations

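The 2 members with the highest change, MRPS2 and MRPS17, were set by 1 control array. MRPS2 measured 13.88 and 13.93 with siRNA-A and siRNA-B, 13.96 with control siRNA-1 and 13.18 with control siRNA-2. MRPS17 measured 12.35, 12.45, 12.49 and 11.98 in the same order. In both genes control siRNA-2 was low, by 0.78 and 0.52 against control siRNA-1, and the other 3 arrays lay close together. The difference between the controls ranged from -0.12 to 0.35 over the other 74 members, and 0.295% and 0.875% of the 17938 named genes were as low or lower in control siRNA-2 as MRPS2 and MRPS17. Without control siRNA-2 the changes of 0.34 and 0.17 became -0.05 and -0.09. These genes were chosen after their values were seen.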
